A study of Mus musculus with 69 samples.

Results

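Normal pituitary and normal hypothalamus of older female mice were compared through 4 RNA-seq libraries of each tissue. These 8 libraries, of 69 in the whole series, were chosen because their labels give the genotype Zeb1_WT, an age of 28 to 36 weeks and the tissue pituitary or hypothalamus, and because their raw count columns come from tables that share 1 counting tool and 1 annotation, so that the tissues could be joined gene by gene. Every mouse was female, of C57BL/6J background and euthanized in proestrus, the stage of the estrous cycle just before ovulation, after a breeding trial. No allele was altered and no agent was given in either tissue. Replicates within a tissue came from different mice, and each library was made from 1 whole dissected tissue, so that every cell type of the dissection is mixed in it. The series as a whole asked how loss of the miR-200 sites in Zeb1 changes these tissues. The comparison below describes the tissue difference that any such change is laid over.

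The hypothalamus and the pituitary form an endocrine relay. Neurons of the hypothalamus release peptides and dopamine into portal blood vessels, and these factors stimulate or inhibit the endocrine cells of the anterior pituitary: somatotropes (growth hormone), lactotropes (prolactin), corticotropes and melanotropes (products of proopiomelanocortin), gonadotropes (luteinizing and follicle-stimulating hormone) and thyrotropes (thyroid-stimulating hormone). The anterior pituitary develops from oral ectoderm, an epithelium, whereas the hypothalamus and the posterior pituitary develop from the floor of the brain, and the posterior lobe stores oxytocin and vasopressin in axons whose cell bodies lie in the hypothalamus. Pituitary capillaries are fenestrated, that is, perforated by pores through which hormones pass, while most hypothalamic vessels are sealed by the blood-brain barrier.

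The pituitary libraries held 5265108 to 12957678 counts and the hypothalamus libraries 10764641 to 12891711. Levels are given as CPM, counts per 1000000 counts of the library after TMM scaling of the library sizes. In pituitary Gh and Prl alone took 26.1% to 28.6% of all counts and the 10 highest genes 29.7% to 32.1%, against 4.97% to 5.91% for the 10 highest genes in hypothalamus. No library was a copy of another. The common biological coefficient of variation was 14.3% in pituitary and 10.4% in hypothalamus. Of 16125 genes with enough counts, 12385 differed between tissues at an adjusted p under 0.05 in edgeR's quasi-likelihood test with Benjamini-Hochberg adjustment, which is 76.8% of those tested, 37.6% higher in pituitary and 39.2% higher in hypothalamus. Since most genes differ between any 2 organs, the lists below are read by a stricter test, edgeR's glmTreat, which asks whether a difference exceeds 2-fold. It called 5477 genes, 34.0% of those tested, with 2264 (14.0%) higher in pituitary and 3213 (19.9%) higher in hypothalamus. These shares are the background for every list, and "past 2-fold" below always means this test at an adjusted p under 0.05. Of the calls past 2-fold, 41.3% were higher in pituitary with TMM scaling, but 32.6% with total counts alone and 52.4% with total counts from which Gh, Prl and Pomc had been taken out, so the balance of directions depended on the scaling. Log2 fold changes are pituitary over hypothalamus. The value after ± of a log2 fold change is a standard error derived from the fit over 8 libraries. It is the size of the log2 fold change over the square root of its quasi-likelihood F statistic, and not an error given by the model. In tissue libraries a lower level can mean fewer cells of a type or less RNA per cell, and these cannot be told apart.

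**Figure D1:**
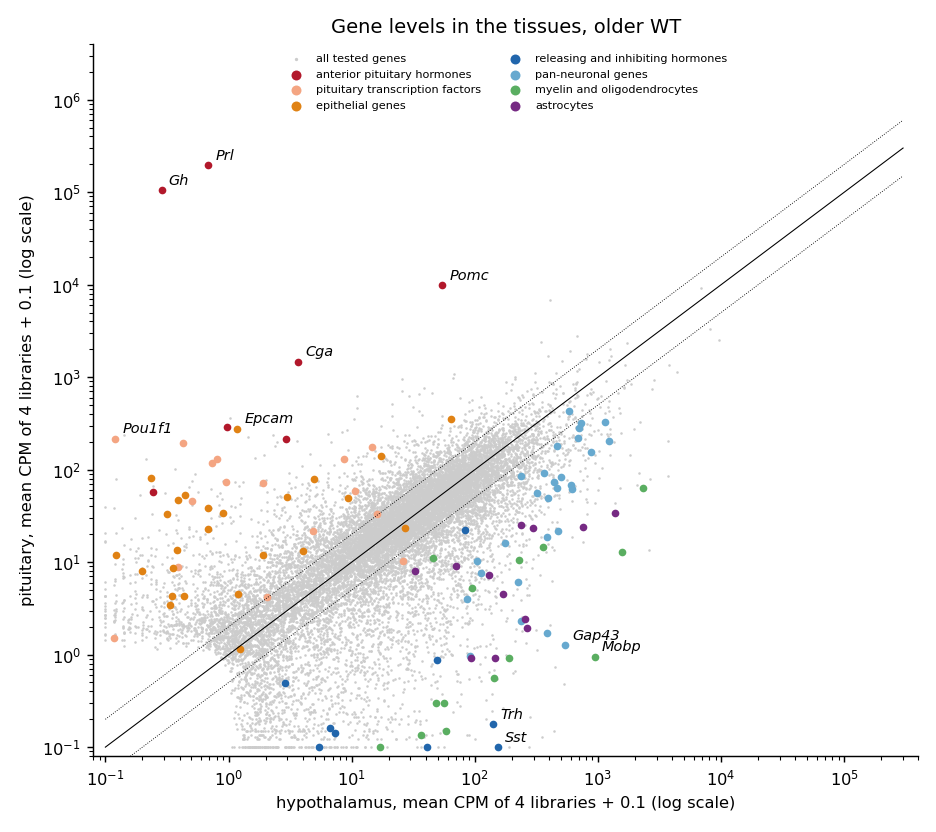
Mean CPM of each tested gene in 4 hypothalamus libraries (x axis, log scale) and 4 pituitary libraries (y axis, log scale), with 0.1 CPM added so that zeros can be drawn. Grey points are all 16125 tested genes, colored points are members of the named lists, the solid line marks equal levels and the dotted lines a 2-fold difference. The hormone genes and most transcription factor and epithelial genes of the pituitary lie above the lines, while neuronal, oligodendrocyte and astrocyte genes lie below them.

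Each labelled tissue carried its defining hormones in every library. All 7 anterior pituitary hormone genes were past 2-fold higher in pituitary, where the share of all genes was 14.0%, with a median log2 fold change of 8.60 against 0.01 over all genes tested, and in all 7 the pituitary libraries lay above every hypothalamus library. Over all tested genes the libraries of the tissues did not overlap for 71.2%, with pituitary higher for 34.4% and hypothalamus higher for 36.8%. All 9 measured genes of the releasing and inhibiting hormone list were past 2-fold higher in hypothalamus, where the share of all genes was 19.9%. That list also holds the enzyme gene Th and the peptide genes Tac2 and Pdyn. Both magnocellular genes were likewise past 2-fold higher in hypothalamus.

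Gh, the growth hormone of somatotropes (chr11:106300271-106301865 on GRCm38), stood at 98996, 105324, 109942 and 106303 CPM in the pituitary libraries and at 0, 0, 0.457 and 0.287 CPM in the hypothalamus libraries. The pituitary libraries lay within a narrow band, and hypothalamus held 10 counts in total over its 4 libraries. The log2 fold change was 18.94 ± 0.33 (edgeR glmTreat, Benjamini-Hochberg adjusted p = 4.12e-14). Prl, prolactin of lactotropes (chr13:27057570-27065205), stood at 214279, 206404, 168223 and 194716 CPM in pituitary and 0, 0.0833, 1.83 and 0.430 CPM in hypothalamus, a log2 fold change of 18.27 ± 0.49 (edgeR glmTreat, Benjamini-Hochberg adjusted p = 5.14e-13). Per kilobase of exon the mean level of Prl was 139137 and that of Gh 121974 CPM, above every other gene of the tissue. Pomc, the precursor of adrenocorticotropic and melanocyte-stimulating hormones (chr12:3954951-3960642), had the highest level per kilobase of the 7 in hypothalamus, at 41.3, where a group of arcuate neurons also makes it. It stood at 8928, 9129, 9317 and 12046 CPM in pituitary and at 45.5, 41.0, 55.2 and 76.2 CPM in hypothalamus, with a log2 fold change of 7.50 ± 0.22. Pituitary replicate 4 was the highest of its tissue for Pomc, and the tissues did not overlap.

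The glycoprotein hormones share the alpha subunit encoded by Cga and differ in their beta subunits. Cga stood at 1586, 1205, 1525 and 1548 CPM in pituitary and at 10.2, 0, 0 and 4.16 CPM in hypothalamus, so that the hypothalamus libraries themselves fell into replicates 1 and 4 with counts and replicates 2 and 3 with none. The log2 fold change was 8.69 ± 0.69, the largest error among the hormones. Lhb, the beta subunit of luteinizing hormone, stood at 302, 310.3, 307 and 223 CPM in pituitary and 2.22, 0.417, 0.381 and 0.502 CPM in hypothalamus (8.37 ± 0.30). It was lowest of the pituitaries in replicate 4 and highest of the hypothalami in replicate 1. Fshb, the beta subunit of follicle-stimulating hormone, stood at 82.7, 42.0, 35.8 and 70.4 CPM and 0.427, 0, 0 and 0.143 CPM in the same order (8.60 ± 0.46), with pituitary replicates 1 and 4 above replicates 2 and 3. Tshb, the beta subunit of thyroid-stimulating hormone, stood at 213, 175, 239 and 221 CPM and 3.41, 1.67, 2.06 and 4.23 CPM (6.20 ± 0.21). Tshb therefore had the smallest fold change of the 7 and was detected in all 4 hypothalami. Lhb and Cga share exon bases with genes on the other strand, Ruvbl2 and Platr9, and the authors' counting set aside reads that overlap 2 genes without regard to strand.

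**Figure D2:**
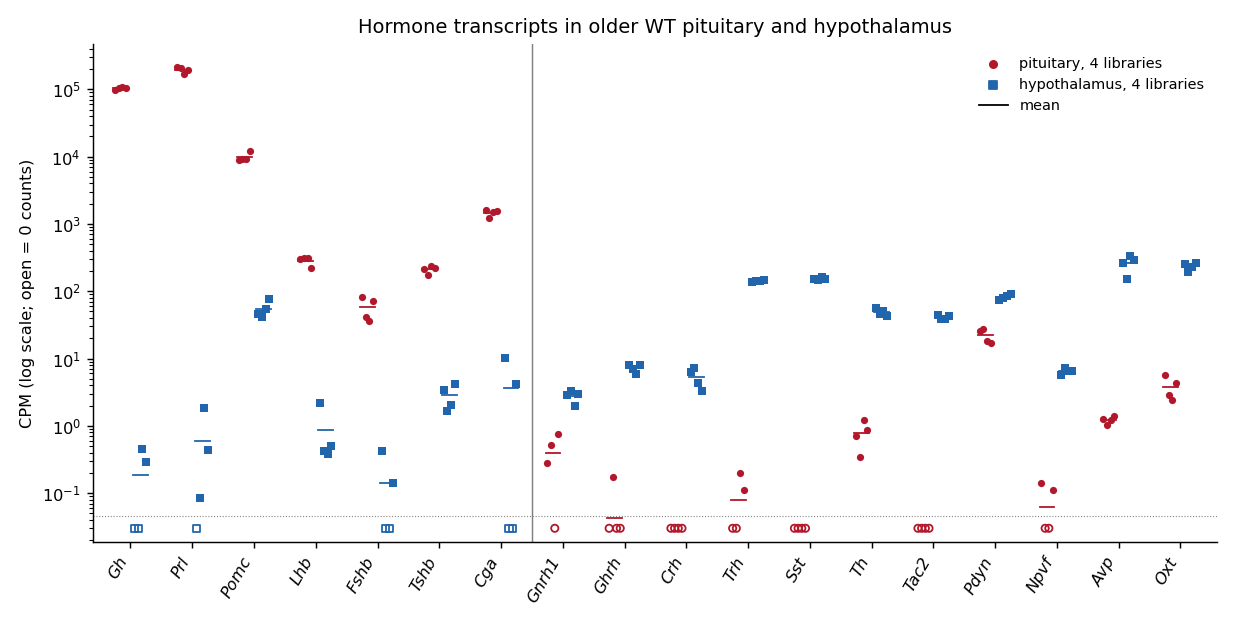
CPM (y axis, log scale) of 7 pituitary hormone genes, left of the line, and 11 genes of the releasing, inhibiting and magnocellular hormone lists, right of the line, in each of 4 pituitary libraries (circles) and 4 hypothalamus libraries (squares). Bars are means and open symbols below the dotted line are libraries with 0 counts. The libraries of the tissues do not overlap for any gene shown.

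Promoters of the hormone genes were read because these genes define the endocrine cells of the pituitary. RefSeq promoter sequences of GRCm38.p6, reaching from 250 bases before to 50 bases after the annotated start, were found for 6 of the 7 hormone genes, all but Gh. The letters TATAAA, the classical TATA box, occurred on the gene's strand 20 to 40 bases before the start in 6 of 6 hormone promoters, and in 1.99% of 32851 promoters of all genes. The windows below show each match in capitals.
Prl, chr13:27057534-27057563, plus strand: atgtcaaaggttTATAAAgccagtgtctgc
Pomc, chr12:3954908-3954937, plus strand: caaccctgcaagTATAAAagaagagagaag
Lhb, chr7:45420903-45420932, plus strand: acaacccgcaggTATAAAgccaggtgccca
Fshb, chr2:107059664-107059693, minus strand: gttttaagtttgTATAAAagatgaggtgta
Tshb, chr3:102782724-102782753, minus strand: cgaatgcaattaTATAAAcaagaagatcag
Cga, chr4:34893737-34893766, plus strand: ttactctgctggTATAAAagacagtgggag

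The letters ATGNATA, the core recognized by the pituitary factor POU1F1, were searched on either strand and occurred in 8.84% of all promoters. Among the 6 hormone promoters only that of Prl held them, 148 bases before the start on the plus strand and 47 bases before the start on the minus strand. The promoter of Pou1f1 itself held them 57 bases before its start, where they overlap a TATAAA match, and again 12 bases after it, and a further TATAAA match lay 33 bases before the start. Each window below marks 1 match in capitals, as read on the plus strand.
Prl, chr13:27057411-27057440: tcttcctgaatATGAATAagaaataaaata
Prl, chr13:27057512-27057541: ctgattatataTATTCATgaagatgtcaaa
Pou1f1, chr16:65520444-65520473: aaactattaacATGTATAaatggatttcct
A match is a description of these letters and not a measured binding site.

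The pituitary receptors that receive hypothalamic signals did not move as a block. Of 12 receptor genes 4 were past 2-fold higher in pituitary, 4 higher in hypothalamus and 4 in neither direction, and the median log2 fold change was 0.71. Ghrhr, the somatotrope receptor for growth hormone-releasing hormone, stood at 246, 236, 192 and 278 CPM in pituitary against 2 counts in all of hypothalamus, a ratio of 6179 (95% interval 1711 to 51024), where intervals of such ratios cover counting error only. Gnrhr, the gonadotrope receptor for gonadotropin-releasing hormone, stood at 90.4, 52.1, 49.7 and 75.3 CPM in pituitary and 0.512, 0, 0 and 0.0717 CPM in hypothalamus, a log2 fold change of 8.80 ± 0.40. Among pituitaries, replicates 1 and 4 were above 2 and 3 for Gnrhr, the same replicates as for Fshb. Drd2, the dopamine receptor that restrains lactotropes, stood at 111, 108, 124 and 151 CPM in pituitary and 21.8, 19.1, 19.3 and 20.9 CPM in hypothalamus (2.61 ± 0.12). Avpr1b, the corticotrope vasopressin receptor, stood at 1.41 to 4.11 CPM in pituitary and at 0 counts in every hypothalamus library, at least 49.5-fold higher when hypothalamus is set at the floor of 3 counts over its 4 libraries.

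Receptors on the hypothalamic side included Adcyap1r1, the receptor for the peptide PACAP, at 426 to 486 CPM in hypothalamus and 20.5 to 25.0 CPM in pituitary (-4.30 ± 0.10). Sstr2, a somatostatin receptor, had a log2 fold change of -3.36 ± 0.22, Ghsr, the ghrelin receptor, -1.71 ± 0.21, and Trhr, the receptor for thyrotropin-releasing hormone, -1.37 ± 0.19. Crhr1, the corticotrope receptor for corticotropin-releasing hormone, had a log2 fold change of 0.53 ± 0.14, and Sstr1, Sstr3 and Sstr5 values of 0.95, 0.90 and 0.47. None of these 4 passed the 2-fold test. Neurons of the brain are known to carry many of these receptors too.

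Transcription factors that specify pituitary cells were mostly higher in pituitary. Of 18 factors listed 16 passed the filter on low counts, 13 were past 2-fold higher in pituitary, and the median log2 fold change was 5.06. Pou1f1, the factor of the somatotrope, lactotrope and thyrotrope lineage, stood at 268, 211, 194 and 187 CPM in pituitary against 1 count in all of hypothalamus, a ratio of 10880.3 (95% interval 1953 to 429749.7). Neurod4, a factor of early pituitary differentiation, stood at 197, 263, 224 and 89.7 CPM in pituitary and 0.167 to 0.430 CPM in hypothalamus (9.12 ± 0.41), with replicate 4 lowest of the pituitaries. Lhx3, which is needed to form the gland, stood at 104 to 131 CPM and 0.500 to 0.860 CPM (7.48 ± 0.16). Pitx1 stood at 105, 164, 140.4 and 109.8 CPM and 1.28, 0.167, 0 and 1.36 CPM (7.49 ± 0.36). As for Cga, hypothalamus replicates 1 and 4 were higher than replicates 2 and 3 for Pitx1. The lineage factors Pax7 of melanotropes (6.74 ± 0.17), Tbx19 of corticotropes and melanotropes (5.28 ± 0.22), Six6 (3.95 ± 0.15), Foxl2 of gonadotropes and thyrotropes (4.84 ± 0.36), Insm1 (2.48 ± 0.16) and Gata2 (2.18 ± 0.13) were likewise past 2-fold higher in pituitary.

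Exceptions among the tested factors of that list were Isl1, Nr5a1 and Neurod1. Isl1, a factor of arcuate neurons as well as of the pituitary, stood at 9.16 to 11.0 CPM in pituitary and 23.5 to 27.6 CPM in hypothalamus (-1.37 ± 0.11, past 2-fold, but not with total counts without Gh, Prl and Pomc). Nr5a1, which marks gonadotropes and also the ventromedial nucleus, stood at 33.1 ± 5.01 CPM (SD, n = 4) and 13.0 to 19.6 CPM (1.04 ± 0.15), and Neurod1 had a value of 1.06 ± 0.25. Neither Nr5a1 nor Neurod1 passed the 2-fold test. Hesx1 and Lhx4 were too low to test in these adult glands.

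Genes assigned to pituitary stem and folliculostellate cells, the resident progenitors and supporting cells, split in 2 directions. Of 11 tested, 7 were past 2-fold higher in pituitary and 4 past 2-fold higher in hypothalamus. Cyp2f2, an enzyme of folliculostellate cells, stood at 164 to 255 CPM in pituitary and 0.250 to 4.19 CPM in hypothalamus (6.36 ± 0.33), and the keratins Krt18 (4.12 ± 0.15) and Krt8 (5.25 ± 0.19) were also higher in pituitary. The 4 on the hypothalamic side were Sox2 (-1.72 ± 0.11), Sox9 (-2.07 ± 0.12), Aldh1a1 (-1.79 ± 0.18) and S100b. S100b, the calcium-binding protein used to stain folliculostellate cells, stood at 0.565, 1.03, 1.01 and 0.656 CPM in pituitary and 173, 136, 143 and 130.2 CPM in hypothalamus, a log2 fold change of -7.45 ± 0.17. Sox2, Sox9 and S100b are also genes of astrocytes and neural progenitors, and Sox9 and S100b are held by the astrocyte list as well.

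Epithelial genes formed the most one-sided pituitary list after the hormones. Of 29 genes 25 were tested, 23 were past 2-fold higher in pituitary and none higher in hypothalamus, with a median log2 fold change of 4.12. Epcam, an adhesion molecule of epithelia, stood at 260.4, 281, 247 and 322 CPM in pituitary and 2.30, 0.500, 0 and 1.51 CPM in hypothalamus, a log2 fold change of 8.01 ± 0.36. Esrp1, a splicing factor of epithelial cells, stood at 86.6, 81.0, 81.0 and 79.8 CPM and 0.0853, 0.167, 0 and 0.287 CPM (9.10 ± 0.22), with the pituitary libraries nearly level. The trafficking gene Rab25 (7.18 ± 0.18), the adaptor subunit Ap1m2 (7.28 ± 0.18), the transcription factor Ehf (7.18 ± 0.22), the polarity gene Llgl2 (5.37 ± 0.18) and the claudins Cldn3 (5.43 ± 0.30) and Cldn7 (3.56 ± 0.35) followed the same direction. Cldn4 had 1 count in hypothalamus, a ratio of 597 (95% interval 107 to 23573). Cdh1, E-cadherin, was among the lowest of the 23 at 1.72 ± 0.38, with 13.7, 11.9, 14.8 and 11.9 CPM in pituitary and 7.77, 0.750, 3.50 and 3.80 CPM in hypothalamus. Hypothalamus replicate 1 was the highest of its tissue for Cdh1 and Epcam. Cgn (-0.22 ± 0.12) did not pass the 2-fold test. Epcam, Esrp1, Rab25 and Cdh1 are genes the study itself followed in these mice, so their choice was not independent of the data.

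The Zeb1 and miR-200 loop is the regulatory unit the series was built on. ZEB1 and ZEB2 repress epithelial genes and the transcripts that host the miR-200 cluster genes, and the mature miR-200 family represses Zeb1 and Zeb2. The mature sequences are shown because their seeds, bases 2 to 8 in capitals, define the 2 families of the loop. All 5 were found in the RefSeq table of GRCm38.p6, and the 3 on chromosome 4 lie within the annotated span of Gm13648 and the 2 on chromosome 6 within that of Gm15884.
miR-200a-3p, chr4:156054911-156054932, minus strand: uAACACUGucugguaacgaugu
miR-141-3p, chr6:124717917-124717938, minus strand: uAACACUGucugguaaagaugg
miR-200b-3p, chr4:156055685-156055706, minus strand: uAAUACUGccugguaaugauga
miR-429-3p, chr4:156053916-156053937, minus strand: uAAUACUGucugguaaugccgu
miR-200c-3p, chr6:124718324-124718346, minus strand: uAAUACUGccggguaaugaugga

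Zeb1 (chr18:5591860-5775467) stood at 56.2, 59.2, 62.6 and 57.6 CPM in pituitary and at 112, 131, 131 and 126 CPM in hypothalamus. The pituitary libraries lay below every hypothalamus library and varied little among themselves. The log2 fold change was -1.09 ± 0.08, which differed from no change but did not pass the test against 2-fold (edgeR glmTreat, Benjamini-Hochberg adjusted p = 0.141). It passed with total counts alone as scaling (-1.31) and without hypothalamus replicate 1 (-1.15). Zeb2 (chr2:44983632-45117395) stood at 10.6, 5.91, 7.88 and 9.40 CPM and 49.3, 42.3, 48.1 and 41.5 CPM, with a log2 fold change of -2.44 ± 0.15 that was past 2-fold. Zeb2 shares exon bases with the antisense gene Zeb2os, and reads from the strands cannot be told apart in these libraries. The host transcript Gm13648, of miR-200b, miR-200a and miR-429, stood at 5.93, 7.19, 5.46 and 8.75 CPM in pituitary and 0.171, 0, 0 and 0 CPM in hypothalamus, where its 2 counts all came from replicate 1. The ratio of the tissues was 180.1 (95% interval 49.9 to 1487). The host Gm15884, of miR-200c and miR-141, was low but detected in all libraries, at 1.55, 2.48, 2.02 and 1.86 CPM in pituitary and 0.256, 0.167, 0.381 and 0.287 CPM in hypothalamus (2.82 ± 0.33), and it overlaps Phb2 on the other strand. Of the 7 tested genes of the loop list 4 were past 2-fold higher in pituitary and 1 in hypothalamus. Counts of a host transcript are not counts of the mature microRNA.

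Other repressors of the epithelial state did not follow Zeb1 and Zeb2. Snai2, also named Slug, stood at 21.0, 10.9, 12.3 and 6.89 CPM in pituitary and 0.512, 0.667, 0.609 and 1.00 CPM in hypothalamus (4.14 ± 0.36), so that it was higher in the tissue with the higher epithelial genes, with pituitary replicate 1 above the rest. Snai1 pointed the same way at low levels (1.65 ± 0.32). Rest, the repressor of neuronal genes outside neurons, stood at 7.44 to 8.22 CPM in pituitary and 10.4 to 12.7 CPM in hypothalamus (-0.54 ± 0.14) and did not pass the 2-fold test. The letters TTCAGCACC, a part of the element that REST recognizes, were found on either strand in 0.371% of all promoters. They occurred in 2 of 16 promoters of the pituitary factor list, 2 of 16 of the granule list, 1 of 24 of the pan-neuronal list, 1 of 25 of the transmitter synthesis list and 1 of 32 of the glutamate and GABA receptor list, and in none of the 6 hormone promoters.

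**Figure D3:**
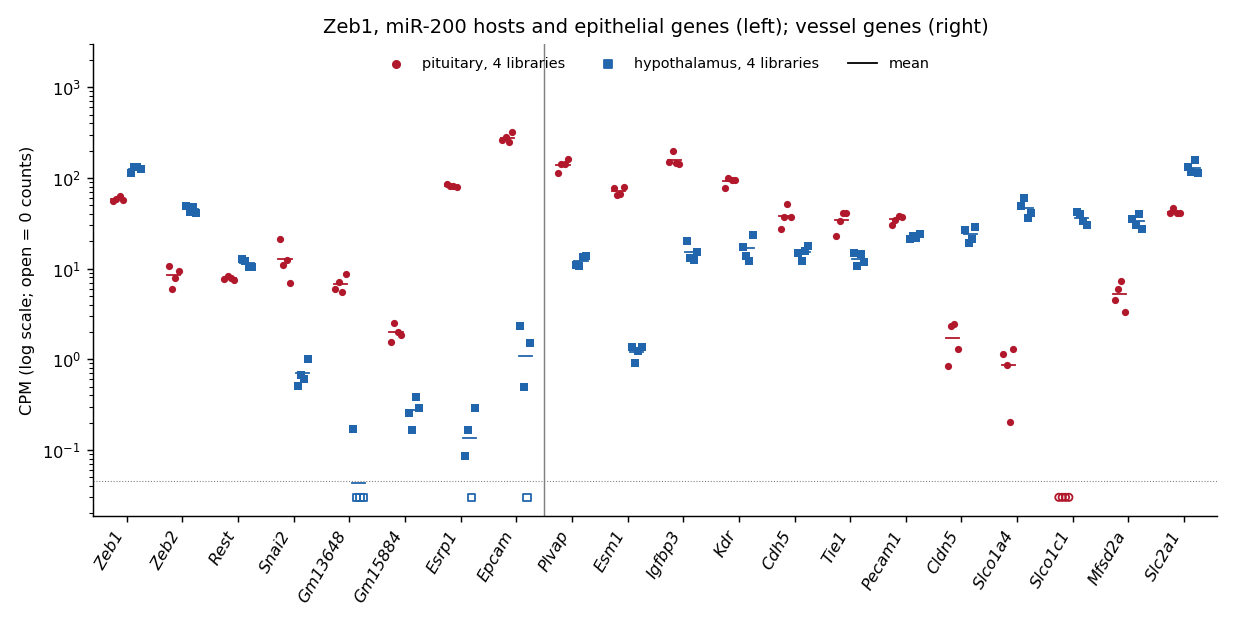
CPM (y axis, log scale) of 8 genes of the Zeb1 and miR-200 loop and epithelium, left of the line, and of 12 vessel genes, right of the line, in each of 4 pituitary libraries (circles) and 4 hypothalamus libraries (squares). Bars are means and open symbols below the dotted line are libraries with 0 counts. Zeb1 and Zeb2 were lower and the miR-200 hosts, Esrp1 and Epcam higher in pituitary, while vessel genes split between the tissues.

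Genes of the secretory pathway were described in 2 lists. Of 17 tested genes of granules and prohormone processing 3 were past 2-fold higher in pituitary and 3 higher in hypothalamus, near the shares of all genes. Without the 2-fold limit 9 differed with higher values in pituitary and 6 with higher values in hypothalamus, and the median log2 fold change was 0.28. Chgb, secretogranin 1, stood at 6234, 7567, 6617 and 7109 CPM in pituitary and 432, 418, 388 and 386 CPM in hypothalamus (4.08 ± 0.10), and at 2512 CPM per kilobase it was the fifth gene of the pituitary. Chga (1.26 ± 0.08) and Scg5 (1.43 ± 0.10), the chaperone of proprotein convertase 2, were also higher in pituitary. Scg2 was nearly level, at 1496, 1752, 1384 and 1427 CPM and 1359, 1288, 1115 and 1183 CPM (0.29 ± 0.10), and so were the convertase Pcsk2 (0.13 ± 0.12) and the amidating enzyme Pam (0.42 ± 0.08), none of them past 2-fold. Pcsk1, the convertase that cuts proopiomelanocortin, was 1.12 ± 0.10 and missed the 2-fold test. Vgf, a granin-like precursor of neurons (-3.18 ± 0.23), Cadps (-2.40 ± 0.11), which primes dense-core vesicles, and Rab27b (-2.36 ± 0.15) were higher in hypothalamus. Cpe, carboxypeptidase E, stood at 800.1 to 933 CPM in pituitary and 1657 to 2044 CPM in hypothalamus (-1.12 ± 0.09), a difference that did not pass the 2-fold test.

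In the endoplasmic reticulum list 14 of 20 genes were past 2-fold higher in pituitary and none in hypothalamus, with a median of 1.77. Creb3l2, a transcription factor of secretory capacity, had the largest value at 3.93 ± 0.11, with 514, 453, 416 and 529 CPM in pituitary and 34.0, 26.5, 32.8 and 31.9 CPM in hypothalamus. The translocon subunits Sec61a1 (2.48 ± 0.10) and Sec61b (2.45 ± 0.15), the translocon-associated Ssr2 (2.34 ± 0.12), the growth factor-like Manf (2.29 ± 0.16) and Pdia3 (1.85 ± 0.11), a disulfide isomerase, followed. Hspa5, the chaperone BiP, stood at 1915, 1567, 1300.3 and 1237 CPM and 624, 466, 439.9 and 504 CPM (1.57 ± 0.14). It was highest in replicate 1 of each tissue, as were Manf, Pdia4 and Sdf2l1. Hsp90b1 (0.99 ± 0.12), Calr (1.16 ± 0.10), Canx (-0.12 ± 0.09), Spcs1 (0.56 ± 0.10), Spcs2 (0.90 ± 0.10) and Herpud1 (1.21 ± 0.14) did not pass the 2-fold test.

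Genes of the releasing and inhibiting hormone list were found on the hypothalamic side in all 9 cases. The median was -6.64 on the log2 scale and -6.74 when genes with 3 counts or fewer in pituitary are set at their counted ratio or bound. Sst, somatostatin, the inhibitor of growth hormone release, stood at 153, 147, 161 and 152 CPM in hypothalamus and at 0 counts in every pituitary library, at least 1681-fold higher in hypothalamus. Trh, thyrotropin-releasing hormone, stood at 135, 140.3, 142 and 145 CPM in hypothalamus with 2 counts in all of pituitary, a ratio of 2316 (95% interval 641 to 19124). The hypothalamus replicates were nearly level for either gene. Th, the rate-limiting enzyme of dopamine synthesis, stood at 56.9, 46.2, 50.9 and 43.5 CPM in hypothalamus and 0.706, 0.342, 1.21 and 0.875 CPM in pituitary (-6.10 ± 0.21). Tac2, neurokinin B of the arcuate neurons that pace gonadotropin-releasing hormone, stood at 43.8, 38.6, 38.8 and 42.2 CPM and was at 0 counts in pituitary (at least 447-fold higher in hypothalamus).

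Gnrh1, Ghrh, Crh and Npvf were low even in hypothalamus. Gnrh1, gonadotropin-releasing hormone, stood at 2.90, 3.25, 1.98 and 2.94 CPM in hypothalamus and 0.282, 0.514, 0 and 0.765 CPM in pituitary (-2.58 ± 0.40). Ghrh, growth hormone-releasing hormone, stood at 5.94 to 8.02 CPM with 2 counts in pituitary, a ratio of 119 (95% interval 32.9 to 980.0). Crh, corticotropin-releasing hormone, ranged from 3.30 to 7.33 CPM with no count in pituitary (at least 57.3-fold higher), and Npvf, the gonadotropin-inhibitory peptide, from 5.63 to 7.25 CPM with a ratio of 107 (95% interval 29.6 to 884). Pdyn, prodynorphin, was the exception in size, at 25.4, 27.7, 18.2 and 16.7 CPM in pituitary and 74.6, 78.7, 86.3 and 89.9 CPM in hypothalamus (-1.89 ± 0.14, past 2-fold). Pituitary replicates 1 and 2 were the higher ones for Pdyn, and the tissues did not overlap.

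Avp, vasopressin, stood at 259.6, 150.1, 337 and 288 CPM in hypothalamus and 1.27, 1.03, 1.21 and 1.42 CPM in pituitary (-7.72 ± 0.29), with hypothalamus replicate 2 the lowest of its tissue. Oxt, oxytocin, stood at 256, 193, 233 and 259 CPM and 5.65, 2.83, 2.42 and 4.37 CPM in the same order (-5.94 ± 0.19). Both transcripts were detected in all 4 pituitary libraries, Oxt at 125 and Avp at 40 counts in total. Of the releasing and inhibiting hormone list, Th and Pdyn were also detected in all 4, whereas Sst, Tac2 and Crh had no count.

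Peptides of feeding, arousal and circadian neurons followed, with 14 of 16 tested genes past 2-fold higher in hypothalamus and 1 higher in pituitary. The median log2 fold change was -5.80, or -4.71 with genes of 3 pituitary counts or fewer at their ratio or bound. Pmch, melanin-concentrating hormone of the lateral hypothalamus, stood at 254, 199, 160.3 and 147 CPM in hypothalamus with no count in pituitary, at least 2052-fold higher, although it shares exon bases with Parpbp on the other strand. Hcrt, the orexin precursor of neighbouring neurons, stood at 153, 124, 169 and 101 CPM and 0.141, 0.342, 0.404 and 0.219 CPM (-8.90 ± 0.27). Cartpt (-6.53 ± 0.18), Tac1, the precursor of substance P (-8.66 ± 0.23), Penk, proenkephalin (-2.91 ± 0.12), Agrp, which drives feeding (-2.29 ± 0.32), and Vip (-1.67 ± 0.22) pointed the same way. Nts, neurotensin, was at 0 counts in pituitary (at least 424-fold higher in hypothalamus), and Npy had 3 counts there, a ratio of 218 (95% interval 74.4 to 1055).

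Gal, galanin, which lactotropes also make, was the one peptide of that list past 2-fold higher in pituitary. It stood at 124, 243, 181 and 74.9 CPM in pituitary and 45.1, 49.7, 48.9 and 47.7 CPM in hypothalamus, a log2 fold change of 1.70 ± 0.25 (edgeR glmTreat, Benjamini-Hochberg adjusted p = 0.0052). The pituitary libraries spread more than 3-fold, with replicate 2 highest and replicate 4 lowest, while hypothalamus was level, and with DESeq2 the call past 2-fold was lost. Bdnf (-0.51 ± 0.18) did not pass the test.

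Transcription factors that pattern the hypothalamus were past 2-fold higher in hypothalamus for 23 of 27 genes, with a median of -6.52, or -5.93 with ratios and bounds in the same way. Otp, which specifies neurosecretory neurons, stood at 51.7, 52.3, 57.6 and 63.4 CPM in hypothalamus with 2 counts in pituitary, a ratio of 929.7 (95% interval 257 to 7677). Dlx1, a factor of GABAergic neurons, stood at 52.7, 51.0, 50.8 and 47.8 CPM with no count in pituitary (at least 553-fold higher in hypothalamus), and Sim1, the partner of Otp, at 14.9 to 19.2 CPM with 1 count in pituitary, a ratio of 564 (95% interval 101 to 22276). Lhx1, Foxb1, Lmx1a, Hmx2, Hmx3 and Onecut3 were also at 0 counts in all 4 pituitaries, so their folds are bounds, from at least 34.9-fold for Hmx2 to at least 141-fold for Lhx1.

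Nkx2-1, the factor that defines the ventral hypothalamus and also the posterior pituitary, was detected in every pituitary, at 2.68, 2.40, 3.23 and 4.48 CPM against 30.1, 36.7, 39.3 and 36.8 CPM in hypothalamus (-3.49 ± 0.17). Rax, a factor of tanycytes and of pituicytes, the glia of the posterior lobe, was level between the tissues at 0.606 to 2.73 CPM in pituitary and 0.833 to 2.89 CPM in hypothalamus (0.02 ± 0.38). Six3 (0.74 ± 0.11) and Tbx3 (-0.29 ± 0.20) did not pass the test either.

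Neuronal genes were lower in pituitary to very different degrees. Of 28 pan-neuronal genes 27 were past 2-fold higher in hypothalamus, with a median of -2.93. Gap43, a gene of axon growth, stood at 555, 614, 502 and 506 CPM there and 1.69, 0.856, 1.01 and 1.09 CPM in pituitary (-8.89 ± 0.16), and Stmn2 (-7.91 ± 0.14), the light neurofilament Nefl (-6.84 ± 0.17) and Nrgn of dendrites (-6.68 ± 0.18) were also among the members with large differences. Snap25, a SNARE protein of exocytosis, stood at 352, 322, 336 and 304 CPM in pituitary and 1153, 1319, 1029 and 1066 CPM in hypothalamus (-1.80 ± 0.10), Syt1, the calcium sensor, was at -1.67 ± 0.08, the vesicle protein Syp at -1.31 ± 0.09 and Vamp2 at -1.17 ± 0.09. Camk2b was the only member that did not pass the 2-fold test (-0.46 ± 0.13), while its paralog Camk2a had a value of -4.44 ± 0.10.

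Most transmitter genes were higher in hypothalamus. In the synthesis and transport list 13 of 18 tested genes were past 2-fold higher in hypothalamus and 2 in pituitary. Gad1, which makes GABA, stood at 342, 374, 351 and 349 CPM in hypothalamus with 1 count in pituitary, a ratio of 11615 (95% interval 2085 to 458777). Its paralog Gad2 stood at 63.0, 51.5, 53.3 and 42.3 CPM in pituitary and 464, 502, 412 and 468 CPM in hypothalamus (-3.14 ± 0.12), so that of the paralogs that make GABA, Gad2 was measured in all 4 pituitaries and Gad1 in 1. Slc32a1, the vesicular GABA transporter (-6.67 ± 0.17), was low in pituitary, at 0.847 to 2.08 CPM. Slc17a6, the vesicular glutamate transporter of the hypothalamus, stood at 75.8, 79.1, 62.6 and 39.6 CPM in pituitary and 256, 266, 230.0 and 255 CPM in hypothalamus (-1.97 ± 0.17). Slc6a3, the dopamine transporter, stood at 32.7, 15.4, 4.95 and 5.66 CPM in hypothalamus, the widest spread of that tissue among these genes, with 2 counts in pituitary.

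Members of the transmitter list on the pituitary side were Dbh, which turns dopamine into noradrenaline, at 2.54, 4.37, 3.84 and 1.42 CPM in pituitary and 0.0853, 0.500, 0.228 and 0.287 CPM in hypothalamus (3.41 ± 0.45), and Slc17a7, the cortical glutamate transporter, at 5.08, 7.02, 6.87 and 5.14 CPM and 1.62, 1.000, 1.98 and 1.65 CPM (1.93 ± 0.23). Both were low in absolute level and did not overlap between tissues. Among 38 glutamate and GABA receptor genes 33 were past 2-fold higher in hypothalamus and none in pituitary. The smallest differences were those of Grik3 (-0.17 ± 0.15), Gabrd (-0.34 ± 0.38), Grik5 (-0.75 ± 0.11) and Grik2 (-0.77 ± 0.09), none past 2-fold, and among the largest was that of Grin2b (-7.84 ± 0.21). Gabbr1 stood at 97.6 to 109 CPM in pituitary and 767 to 808 CPM in hypothalamus (-2.94 ± 0.08), but its partner in the GABA-B receptor, Gabbr2, at 1.84 to 2.95 CPM and 219 to 261 CPM (-6.59 ± 0.14).

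Splicing regulators of neurons and of epithelia pointed in opposite directions. Of 19 genes 9 were past 2-fold higher in hypothalamus and 4 in pituitary. The neuronal regulators Rbfox3 (-3.84 ± 0.18), Rbfox1 (-4.91 ± 0.13), Elavl3 (-5.22 ± 0.12) and Celf4 (-2.59 ± 0.08) were higher in hypothalamus. The epithelial regulators Esrp1, Esrp2 (3.79 ± 0.34) and Rbm47 (2.32 ± 0.31) were higher in pituitary, together with Ptbp1, the repressor of neuronal exons, at 182, 199, 203 and 176 CPM in pituitary and 31.4, 29.2, 36.8 and 35.0 CPM in hypothalamus (2.52 ± 0.10). Srrm4 (0.40 ± 0.10) and Srrm3 (-0.07 ± 0.11), which drive neuronal microexons, were at comparable levels in the tissues, 76.0, 90.1, 75.2 and 95.9 CPM in pituitary and 58.1, 60.3, 71.5 and 66.5 CPM in hypothalamus for Srrm4, and neither passed the 2-fold test.

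Genes of brain glia were read in lists for oligodendrocytes, astrocytes, ependymal cells and microglia. All 14 myelin and oligodendrocyte genes were past 2-fold higher in hypothalamus, with a median of -7.87 and -7.65 with the genes of 3 pituitary counts or fewer at their ratio or bound. Mbp, myelin basic protein, stood at 2797, 2114, 2366 and 1987 CPM in hypothalamus and 48.4, 58.4, 72.7 and 72.9 CPM in pituitary (-5.20 ± 0.16) and Mobp at 1129.9, 923, 1001 and 699 CPM and 0.282, 0.257, 2.22 and 0.656 CPM (-10.40 ± 0.32). Hypothalamus replicate 1 was the highest for both. The lineage factors Olig1 (-8.44 ± 0.32) and Sox10 (-7.95 ± 0.22) stood at 0.0856 to 1.13 and 0.0856 to 0.282 CPM in pituitary, and Opalin was at 0 counts there (at least 184-fold higher in hypothalamus). Summed over the list, pituitary libraries held 101 to 137 CPM and hypothalamus libraries 5233 to 7340 CPM.

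All 12 astrocyte genes were past 2-fold higher in hypothalamus, with sums of 132 to 151 CPM in pituitary and 3682 to 3923 CPM in hypothalamus. Agt, angiotensinogen, stood at 268, 267, 276 and 250.2 CPM in hypothalamus and 1.84, 2.23, 2.42 and 0.875 CPM in pituitary (-7.19 ± 0.17), Gfap at 322, 163, 252 and 279 CPM and 1.55, 2.23, 3.64 and 1.97 CPM (-6.82 ± 0.25). The glutamate transporters Slc1a2 (-5.34 ± 0.10) and Slc1a3 (-5.00 ± 0.11) and the gap junction gene Gja1 (-3.25 ± 0.10) kept 20 or more CPM in every pituitary. Of 9 ependymal and tanycyte genes 6 were past 2-fold higher in hypothalamus, among them the ciliary factor Foxj1 (-3.26 ± 0.18), and none in pituitary. Of 15 tested microglia and macrophage genes 6 were past 2-fold higher in hypothalamus, led by P2ry12 (-4.12 ± 0.27), a receptor of resting microglia, while the complement genes C1qa (-0.51 ± 0.13), C1qb (-0.66 ± 0.12) and C1qc (-0.67 ± 0.11), which other macrophages also express, did not pass the test.

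**Figure D4:**
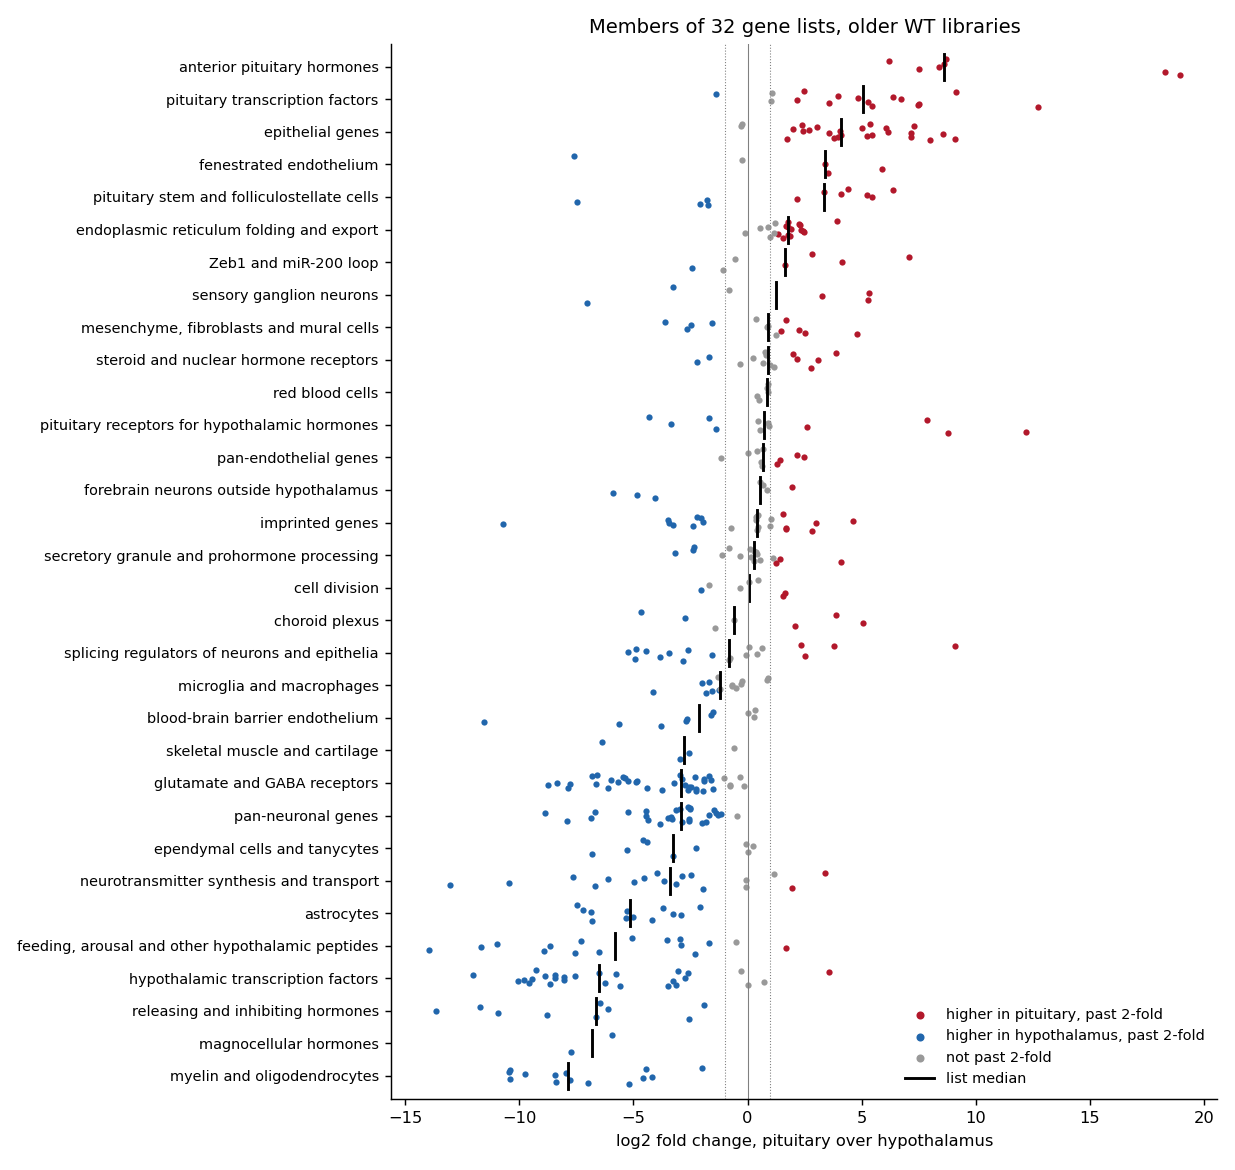
Log2 fold change, pituitary over hypothalamus (x axis), of every tested member of 32 gene lists, fitted over 4 libraries of each tissue and ordered by the list median (black bar). Colored points are past 2-fold at an adjusted p under 0.05, and dotted lines mark a 2-fold difference. Values of genes with 0 to 3 counts in 1 tissue are fitted values and not bounds. Hormone, pituitary factor and epithelial lists lie to the right, and myelin, releasing hormone, hypothalamic factor and astrocyte lists to the left.

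Vessel genes were described in lists of general, fenestrated and barrier endothelium. Of 10 pan-endothelial genes 4 were past 2-fold higher in pituitary and none in hypothalamus, with a median of 0.67. The list summed to 274 to 371 CPM in pituitary and 193 to 221 CPM in hypothalamus, and 8 members differed with higher values in pituitary. Pecam1 stood at 30.5, 34.4, 37.8 and 36.8 CPM in pituitary and 21.2, 22.7, 21.5 and 23.8 CPM in hypothalamus (0.64 ± 0.10, not past 2-fold). The 4 became 2 with total counts alone as scaling or with DESeq2. Of 5 genes of fenestrated endothelium 3 were past 2-fold higher in pituitary and 1 in hypothalamus. Plvap, which forms the diaphragms of the pores, stood at 113, 144, 142 and 162 CPM in pituitary and 10.9, 10.7, 13.5 and 13.9 CPM in hypothalamus (3.52 ± 0.13). Esm1, an endothelial proteoglycan, stood at 77.7, 65.2, 67.3 and 80.1 CPM and 1.37, 0.916, 1.22 and 1.36 CPM (5.88 ± 0.14), Igfbp3 was at 3.38 ± 0.15 and the general endothelial Kdr, a receptor for vascular endothelial growth factor, at 2.45 ± 0.17. Hypothalamus was not without Plvap, which is a gene of the median eminence as well.

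Of 10 barrier genes 7 were past 2-fold higher in hypothalamus and none in pituitary. Cldn5, the claudin that seals brain capillaries, stood at 0.847, 2.31, 2.42 and 1.31 CPM in pituitary and 26.8, 18.9, 21.4 and 29.0 CPM in hypothalamus (-3.79 ± 0.24). Slco1a4, an organic anion transporter, stood at 1.13, 0.856, 0.202 and 1.31 CPM and 48.5, 60.7, 36.5 and 40.9 CPM (-5.61 ± 0.26). Slco1c1, which carries thyroid hormone into brain, stood at 30.2 to 41.8 CPM in hypothalamus with no count in any pituitary (at least 393-fold higher). Slc2a1, the glucose transporter, was at -1.62 ± 0.11, while Slc7a5, the large amino acid transporter, was level at 0.04 ± 0.18. In the same direction was Ackr1, listed with fenestrated vessels (-7.62 ± 0.29), a gene that shares exon bases with Cadm3 on the same strand. Hemoglobin and other red blood cell genes did not pass the 2-fold test in either direction, with sums of 53.2 to 108 CPM in pituitary and 33.8 to 64.7 CPM in hypothalamus.

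Connective tissue genes split in both directions. Of 13 tested mesenchymal and mural genes 5 were past 2-fold higher in pituitary and 4 in hypothalamus. The 5 became 3 with DESeq2, where the call of Mgp was among those lost, and the 4 became 3 with total counts without Gh, Prl and Pomc, where that of Vim was lost. Col1a2, a collagen chain, stood at 631, 898, 771 and 529 CPM in pituitary and 38.0, 15.0, 25.4 and 23.7 CPM in hypothalamus (4.79 ± 0.25). Its partner chain Col1a1 stood at only 15.5 to 23.4 CPM in pituitary (1.23 ± 0.22, not past 2-fold), so that in pituitary the level of Col1a2 per kilobase was 56.9 and that of Col1a1 2.94. Fn1, fibronectin (-3.63 ± 0.18), Pdgfra, a gene of oligodendrocyte precursors as well as fibroblasts (-2.64 ± 0.15), Acta2 of smooth muscle (-2.49 ± 0.33) and Vim (-1.54 ± 0.17) were higher in hypothalamus. Hypothalamus replicate 1 was highest and replicate 2 lowest for Mgp (40.4, 10.8, 25.4 and 17.3 CPM), Dcn (28.8, 11.4, 15.3 and 20.4 CPM), Ogn (19.7, 2.17, 11.1 and 7.31 CPM) and Aldh1a2 (20.3, 3.08, 9.21 and 8.82 CPM), genes of the meninges and other fibroblasts. What part this difference between hypothalamus libraries has in the values above was not tested.

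Lists of neighbouring tissues gave low levels. Of 7 tested forebrain genes 1 was past 2-fold higher in pituitary, the Slc17a7 named above, and 3 in hypothalamus. Summed over all 10, pituitary libraries held 52.5 to 63.7 CPM and hypothalamus libraries 46.1 to 53.3 CPM, and Neurod6 of cortex had 0 counts in pituitary and 55 in hypothalamus. Of 4 tested skeletal muscle and cartilage genes 3 were past 2-fold higher in hypothalamus, and the list summed to 8.19 to 15.0 CPM and 21.6 to 32.2 CPM. The trigeminal ganglia lie beside the gland, and the list of sensory ganglion neurons summed to 25.4 to 39.6 CPM in pituitary and 21.4 to 26.3 CPM in hypothalamus. Of 6 tested members 3 were past 2-fold higher in pituitary and 2 in hypothalamus. The 3 were the sodium channels Scn10a (5.29 ± 0.30) and Scn11a (3.27 ± 0.22) and the factor Pou4f1 (5.34 ± 0.60). Scn10a stood at 14.4 ± 4.12 CPM (SD, n = 4) in pituitary and 0.352 ± 0.125 CPM (SD, n = 4) in hypothalamus. Of the other members, Prph stood at 0.141, 0.0856, 0 and 0.219 CPM in pituitary (-7.02 ± 0.30), Mrgprd at 0 counts and Trpv1 at 3 counts in pituitary. What part cells of that ganglion have in the higher channels was not tested. Of 7 tested choroid plexus genes 3 were past 2-fold higher in pituitary, Folr1, a folate receptor (5.07 ± 0.19), the water channel Aqp1 (3.86 ± 0.32) and Kl, klotho (2.10 ± 0.15), and 2 in hypothalamus, whereas Ttr, the defining transcript of that tissue, stood at 1.98, 2.40, 2.02 and 2.95 CPM in pituitary and 5.38, 1.50, 14.4 and 4.02 CPM in hypothalamus.

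Steroid, nuclear and other hormone receptors leaned to pituitary, with 5 of 14 tested genes past 2-fold higher there and 2 in hypothalamus. Esr1, estrogen receptor alpha, stood at 189.8, 177, 203 and 204 CPM in pituitary and 24.5, 30.4, 23.4 and 33.4 CPM in hypothalamus (2.79 ± 0.12). Thrb, a thyroid hormone receptor, stood at 371, 371, 260.5 and 155 CPM and 31.4, 33.2, 34.2 and 37.1 CPM (3.09 ± 0.22), with pituitary replicate 4 the lowest, and its paralog Thra at 98.3, 127, 112 and 120.4 CPM and 520.3, 516, 554 and 519 CPM (-2.20 ± 0.09), so that the paralogs pointed in opposite directions. Igf1r (2.01 ± 0.10), Vdr (3.86 ± 0.30) and Gper1 (2.16 ± 0.26) were higher in pituitary and Ghr, the growth hormone receptor (-1.69 ± 0.11), in hypothalamus. Pgr (1.14 ± 0.12), Nr3c1, the glucocorticoid receptor (-0.34 ± 0.10), and Prlr (0.26 ± 0.11) did not pass the 2-fold test, and Esr2 had 5 counts in pituitary and 52 in hypothalamus, too few to test.

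Imprinted genes, which are expressed from 1 parental allele and are many in both tissues, were divided. Of 23 tested 6 were past 2-fold higher in pituitary and 8 in hypothalamus. Dlk1, a Notch-like ligand, stood at 1819, 2813, 2243 and 2807 CPM in pituitary and 299, 316, 385 and 373 CPM in hypothalamus (2.82 ± 0.15), Plagl1, a zinc finger factor, at 646, 636, 612 and 484 CPM and 69.2, 72.8, 79.4 and 79.6 CPM (2.98 ± 0.11) and Mest at 363, 687, 659 and 329 CPM and 21.5, 18.3, 23.0 and 21.1 CPM (4.60 ± 0.24). The noncoding RNA Meg3, of the same domain as Dlk1, was high in both tissues at 9254, 9398, 8982 and 8968 CPM and 4839.5, 7206, 7851 and 7509 CPM (0.42 ± 0.13) and did not pass the 2-fold test. Magel2 of the Prader-Willi region stood at 102, 107, 149.7 and 132 CPM in hypothalamus with 2 counts in pituitary, a ratio of 2031 (95% interval 562 to 16775). Ndn, its neighbour, stood at 1046, 533, 489 and 542 CPM in hypothalamus and 76.4, 76.3, 56.6 and 58.7 CPM in pituitary (-3.28 ± 0.22), with hypothalamus replicate 1 well above the other libraries. Snrpn (-3.45 ± 0.13), Igf2 (-3.48 ± 0.36), Peg10 (-2.37 ± 0.16) and Usp29 (-2.20 ± 0.11) were likewise higher in hypothalamus.

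Cell division genes were close to the floor. Of 12 listed 7 could be tested, and Mki67, at 1.84, 2.74, 3.23 and 1.97 CPM in pituitary and 0.683, 0.667, 0.761 and 1.15 CPM in hypothalamus (1.54 ± 0.29), and Top2a (1.63 ± 0.34) were past 2-fold higher in pituitary and Ccnb2 (-2.05 ± 0.34) in hypothalamus. The list had a median of 0.09. The pituitary count of 2 became 0 without hypothalamus replicate 2, without hypothalamus replicate 3, without pituitary replicate 3, with DESeq2, with no filter on low counts or with total counts alone, and 1 without hypothalamus replicate 1 or pituitary replicate 2. The hypothalamus count of 1 became 0 with DESeq2, which lost Ccnb2, and 2, with Birc5 added, without pituitary replicate 3, with no filter on low counts or with total counts alone.

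Beyond the lists, the largest differences among genes of at least 50 CPM in the higher tissue added names of other kinds. In pituitary these were Impg1, a matrix proteoglycan known from retina, at 152, 191, 149 and 32.5 CPM in pituitary and 0 to 0.215 CPM in hypothalamus, with replicate 4 far below the rest (9.98 ± 0.71), the epithelial sodium channel subunit Scnn1b at 37.6, 58.0, 67.9 and 49.1 CPM (8.91 ± 0.36) and the unnamed gene Gm14617 at 61.6 to 115 CPM with 1 count in hypothalamus, a ratio of 3995 (95% interval 717 to 157805). In hypothalamus they were Calb2, calretinin, at 275 ± 28.1 CPM (SD, n = 4) with no count in pituitary (at least 2995-fold higher), Itih3 at 386 to 513 CPM with a ratio of 7249.6 (95% interval 2007 to 59862), the proline transporter Slc6a7 with a ratio of 2939.5 (95% interval 528 to 116106), the receptor Gpr101 with a ratio of 3272 (95% interval 587 to 129236), the factor Pou3f3 (at least 609.7-fold higher) and the synaptic kinase-like Camkv at 257 to 308 CPM (-11.04 ± 0.20).

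Among the 10 genes with the highest level per kilobase in hypothalamus, 9 were mitochondrial and the other was Apoe, the apolipoprotein of astrocytes, at 2108, 1724, 2303 and 1775 CPM in hypothalamus and 251, 260.4, 237 and 359 CPM in pituitary (-2.84 ± 0.14). Mitochondrial genes took 0.808% to 1.21% of counts in pituitary and 3.69% to 4.82% in hypothalamus. The protein-coding mitochondrial genes differed moderately, with mt-Co1 at -1.93 ± 0.13 and mt-Cytb at -1.31 ± 0.12. The ribosomal RNAs of the mitochondrion differed far more. mt-Rnr2 stood at 121, 48.3, 108 and 67.9 CPM in pituitary and 4676, 4181, 2897 and 3187 CPM in hypothalamus (-5.45 ± 0.28), and mt-Rnr1 at 67.8 ± 20.6 CPM (SD, n = 4) and 2057 ± 440.5 CPM (SD, n = 4) (-4.93 ± 0.22). Ribosomal transcripts are meant to be removed by poly(A) selection. Their level moved with tissue, and its part in other differences was not tested.

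A separate set of young virgin Zeb1_WT females, aged 8 to 12 weeks, gave the same tissues from other animals, with 3 pituitary and 4 hypothalamus libraries. Their RNA was depleted of ribosomal RNA and not poly(A)-selected, and the libraries were stranded and were counted with another tool and annotation, so age, breeding and method cannot be told apart and the values are only set side by side. The young fit called 4937 of 16462 genes past 2-fold (30.0%), 11.8% higher in pituitary and 18.2% higher in hypothalamus. Of the young calls 39.3% were higher in pituitary, and 49.8% with total counts without Gh, Prl and Pomc. The cohorts had 14030 tested genes in common. The 2-fold test passed 4587 of these in older mice and 4132 in young mice, and 3742 passed in both with the same direction, which is 81.6% of the older and 90.6% of the young calls. Pearson's r of the log2 fold changes was 0.955 across genes, which are not independent replicates. Opposite calls were found for 2 genes, Xkr6 and Gm37940. Xkr6 shares 326 of its 7258 exon bases with Gm15918 on the other strand, and no shared bases are listed for Gm37940. What part strand and counting have in the opposite calls was not tested.

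The values of named genes can be set side by side. Gh and Prl had log2 fold changes of 12.65 and 12.89 in young mice against 18.94 and 18.27 in older mice, with 1.31 to 6.15 and 4.20 to 24.4 CPM in the young hypothalami. Pomc was at 6.83 against 7.50 and Tshb at 8.79 against 6.20. Zeb1 was at -1.28 in young and -1.09 in older mice and Zeb2 at -2.29 and -2.44. Among dividing-cell genes, Mki67 was at 3.57 ± 0.20 in young and 1.54 ± 0.29 in older mice and Top2a at 4.04 ± 0.32 and 1.63 ± 0.34. Of that list 5 of 6 tested members were past 2-fold higher in young pituitary, and 2 of 7 in older pituitary. The 6 and the 7 are not the same genes, since each cohort had its own filter on low counts. Ccnb2, Birc5 and Aurka were tested in older mice only, so the counts cannot be compared directly. mt-Rnr1 was at -1.39 and mt-Rnr2 at -1.49 in the young libraries, where ribosomal RNA was removed by depletion.

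**Figure D5:**
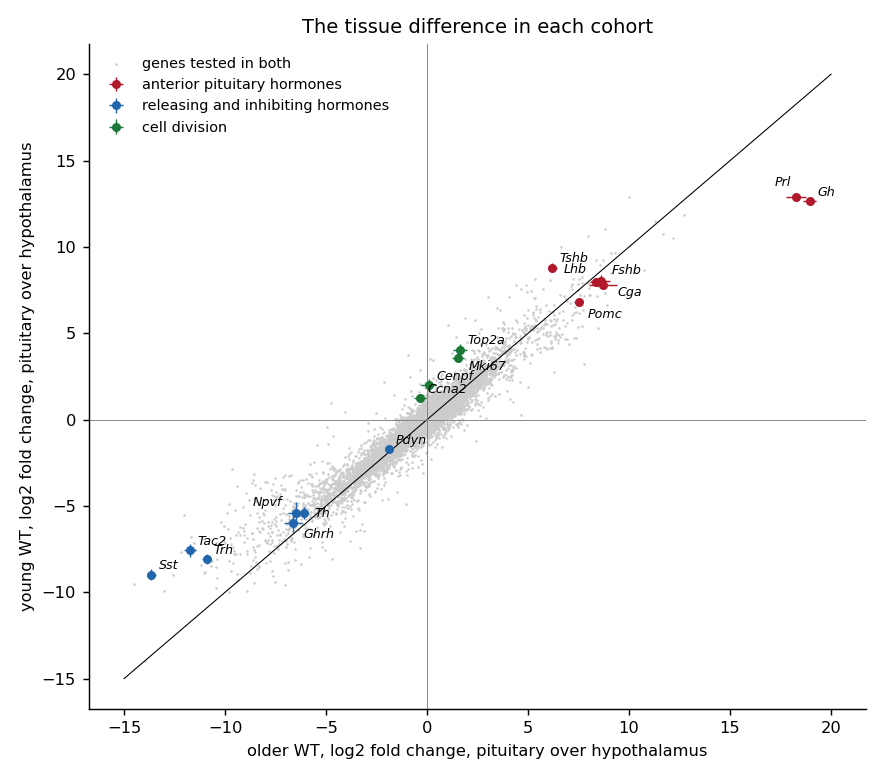
Log2 fold change, pituitary over hypothalamus, in older WT mice (x axis, 4 and 4 libraries) and young WT mice (y axis, 3 and 4 libraries) for 14030 genes tested in both. Colored points are named lists with standard errors as bars, and the line marks equal values. Hormone and releasing hormone genes lie in the same quadrants in both cohorts, Gh and Prl lie below the line, and the 4 cell division genes lie above it.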

How the data were processed

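RNA-seq libraries of 4 pituitaries and 4 hypothalami of older WT females were analysed as raw counts per gene. Per the methods and labels, the authors prepared unstranded poly(A) libraries for single-end reads, aligned them with STAR 2.7.1a to GRCm38 (mm10) and deposited counts per Ensembl 87 gene made with HTSeq 0.9.1 in union mode without strand. The young libraries, rRNA-depleted, stranded and paired-end, were counted by the authors with featureCounts. The tables also hold the authors' DESeq2 (1.18 and 1.38.3) fold changes and p-values, which were not used, and 43 columns of other samples, which were not used either. Only 4 of the 18 deposited files were read, and tissues were joined by gene ID.

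Genes were filtered with filterByExpr and scaled by TMM in edgeR 4.0.16 (R 4.3.3, limma 3.58.1). The tissues were compared without covariates by the quasi-likelihood F test and by glmTreat against a log2 fold change of 1, with Benjamini-Hochberg adjustment over all tested genes and a threshold of 0.05. The fit was tested on simulated data of 15884 genes for this comparison. Its F test called 0.051% of unchanged genes, 81.8% of genes changed by 1 on the log2 scale and all of those changed by 3. The test against 2-fold called 0% of genes changed by 1 and all of those changed by 3. In the simulation 15685 genes were unchanged, whereas most genes differ in the data, so it did not test the scaling. CPM are counts over TMM-scaled library size, and levels per kilobase use the union of exons of GENCODE M21 on GRCm38, which matched 99.5% of the gene IDs. The depth limits a gene at 0 in a tissue to 0.0913 CPM in pituitary and 0.0591 CPM in hypothalamus, the level of 3 counts over 4 libraries. Ratios of genes with 1 to 3 counts in a tissue have exact Poisson 95% intervals. Reads carry no molecular identifiers, so these cover counting error only.

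Gene lists are cell type and pathway markers from general knowledge. The libraries, lists and members were chosen with earlier results of these data known. Named are all hormone list members, the 10 largest differences in each direction among genes past 2-fold, of at least 50 CPM in the higher tissue and without overlap of libraries, the 10 highest genes per kilobase in each tissue, up to 4 members of every other list with the highest level per kilobase, members past 2-fold against their list's direction, and Zeb1, Zeb2, Esrp1, Epcam, Rest, Gm13648 and Gm15884. Other list members were named with their values in view. Kiss1 and Nesp had no matching ID and were not analysed here, and some other list members are counted but not reported here by name. Pairing by replicate number was not used, since the sources do not say that same-numbered tissues share a mouse. The libraries' deviations were too few to decide it. Alternatives were RLE, upper-quartile and total-count scaling with and without Gh, Prl and Pomc, no filter on low counts, DESeq2 1.42.0, a replicate block and leaving out each library.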

Additional observations from a re-analysis of the deposited data

Results flagged for a closer look

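Among 291 groups of 4 libraries of the genes with at least 1 CPM, 18 (6.19%) held a library set apart from the other three by Dixon's test at the 95% level, and chance alone sets apart about 1 in 20. In pituitary, replicate 1 was lowest for Esam at 14.3 CPM (others 22.2 to 23.0), Igf1r at 291 CPM (others 343 to 349.7), Kl at 31.9 CPM (others 47.7 to 50.9) and Rbfox2 at 138 CPM (others 157 to 160.2). Pituitary replicate 2 was lowest for Cga at 1205 CPM (others 1525 to 1586) and highest for Igfbp3 at 196 CPM (others 143 to 149) and Slc2a1 at 46.3 CPM (others 40.6 to 41.2). Pituitary replicate 4 was lowest for Lhb at 223 CPM (others 302 to 310.3) and highest for Pomc at 12046.5 CPM (others 8928 to 9317).

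In hypothalamus, replicate 1 was highest for Ndn at 1046 CPM (others 489 to 542), Aldh1a1 at 81.9 CPM (others 46.2 to 51.4), Spint2 at 72.9 CPM (others 60.2 to 62.4) and Acta2 at 25.4 CPM (others 9.29 to 12.0). Hypothalamus replicate 2 was highest for mt-Nd4 at 3357 CPM (others 2633.5 to 2689). Hypothalamus replicate 3 was highest for Slc32a1 at 159 CPM (others 134 to 135), Slc7a5 at 100.9 CPM (others 78.9 to 82.2) and Thra at 554 CPM (others 516 to 520.3), and lowest for Aurka at 0.685 CPM (others 1.36 to 1.42).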

How the results depend on the processing

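Each count of genes that differed, and each of its directions, stayed within 1.5 times its value in all 146 recomputations of 10 counts. Genes past 2-fold numbered 5479 to 5621 when 1 library was left out and 4668 (DESeq2) to 7017 (no filter on low counts) otherwise. Upper-quartile scaling, total counts alone and total counts without Gh, Prl and Pomc moved the median log2 fold change of all genes from 0.01 to 0.14, -0.22 and 0.27, and the share of calls higher in pituitary from 49.0% to 54.6%, 39.1% and 60.0%. Same-numbered libraries deviated together with correlations of -0.11 to 0.26 and other pairs of -0.39 to 0.31 over 10776 genes. With only 4 libraries per tissue, these values cannot decide whether same-numbered tissues share a mouse. A replicate block called 12389 genes, 5490 of them past 2-fold. In young mice it called 10524 and 4673, where it used the 4 of 7 libraries whose number occurs in both tissues and tested 17513 genes. Of 2610 recomputed values of 174 named genes 2573 kept direction and side of the 2-fold threshold. The call was lost in 14, for Ccnb2, Cdh5, Gal, Isl1, Mgp, Tie1, Vim and mt-Cytb, and gained in 16, for Birc5, Calr, Cpe, Hsp90b1, Nnat, Ttr and Zeb1. Among leave-outs, Cdh5 lost it without hypothalamus replicate 1 (1.29), hypothalamus replicate 2 (1.21) or pituitary replicate 3 (1.16). Slc7a5, level at 0.04, changed sign with total counts alone (-0.19), without the filter (-0.0082), with the replicate block (-0.0086) and between leave-outs, which ranged from -0.13 to 0.22. The cause was not tested. Of 960 list counts 937 stayed within 1.5 times, and the others fell in the cell division, pan-endothelial, mesenchymal, Zeb1, peptide and pituitary factor lists. Genes with few counts, such as those of cell division, have the widest counting error.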

Other observations

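The median coefficient of variation of list members was 10.7% in hypothalamus, over 292 members, and 13.8% in pituitary, over 231 members. The largest values were in hypothalamus, where 4 members exceeded 50%, against 0 in pituitary. Several pituitary genes of different lists were lowest in replicate 4, among them Thrb (371, 371, 260.5 and 155 CPM), Mest (363, 687, 659 and 329 CPM), Neurod4 (197, 263, 224 and 89.7 CPM) and Gal (124, 243, 181 and 74.9 CPM). In hypothalamus, the pituitary genes Pitx1 (1.28, 0.167, 0 and 1.36 CPM), Epcam and Cga were higher in replicates 1 and 4 than in replicates 2 and 3, whereas Gh and Prl were highest in replicate 3. Nuclear ribosomal RNA genes summed to 70.1 to 754 CPM in pituitary, highest in replicate 3, and to 72.9 to 129 CPM in hypothalamus.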
